A study of Rattus norvegicus with 6 samples.

Results

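The 9 genes described here, Six2, Osr1, Cited1, Pax2, Pax8, Lhx1, Sall1, Eya1 and Wt1, were chosen by name as transcription factors and cofactors of the kidney progenitor. Of the 22085 genes in the table, 7 of these 9 were analysed, and Pax2 and Lhx1 were not analysed here. All 7 passed the filter on low counts and were among the 15776 genes tested. The libraries came from cultured cells of rat amniotic fluid, taken on embryonic day 18.5 from dams of a preeclampsia model (3 libraries) and from control pregnancies (3 libraries). All cells were kept in serum-containing medium and collected at passage 4, and the labels name them mesenchymal stem cells. How the preeclampsia model was made, the rat strain, and how many dams or fetuses stand behind a library are not given in the sources used here. Every test therefore sets the group difference against the spread between these libraries. Whether that is a spread between animals is not known.

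In the embryo the kidney forms from intermediate mesoderm, which Osr1, Pax2, Pax8 and Lhx1 help to specify. Around each tip of the branching ureteric bud, a cap of mesenchyme then holds the nephron progenitors, which Six2 keeps in an uncommitted state and Cited1 marks. Eya1, Sall1 and Wt1 act in the same mesenchyme, and Pax8, Lhx1 and Wnt4 come on as it turns into epithelium. None of these genes is private to the kidney: Osr1 and Wt1 are also used in other mesoderm and in mesothelium, and Eya1, Sall1 and Six2 in limb, ear and craniofacial mesenchyme. Fetal urine enters the amniotic fluid late in pregnancy, which is why kidney factors have been read in such cultures as a clue to origin.

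The cultures held some of these factors and not the set. Eya1 was the only one at 1 FPKM or more (fragments counted per transcript length and library size, the per-length level in the deposited table) in all 6 libraries. Osr1 reached 1 FPKM in 5 libraries, Sall1 and Wt1 in 4, Pax8 in 3 and Six2 in 1, and Cited1 did so in none. Between 3 and 4 of the 7 factors reached 1 FPKM in a library, but which ones differed: the highest was Osr1 in preeclampsia library 1, Eya1 in preeclampsia library 2, Wt1 in preeclampsia library 3, Sall1 in control libraries 1 and 2, and Eya1 in control library 3. By the quasi-likelihood test of edgeR, 0 of the 7 factors had an adjusted p under 0.05 for preeclampsia over control, and 0% of all tested genes did. DESeq2 called 2.65% of the genes it gave an adjusted p and 0 of these factors, with no adjusted p for Cited1. In the edgeR fit of all 6 libraries on group alone, 0 of 7 had an unadjusted p under 0.05, against 9.19% of all tested genes. In bulk RNA, fewer cells with a factor and less of its RNA per cell cannot be told apart.

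Promoter sequences from RefSeq on the GRCr8 build matched 5 of the 7 analysed genes. The 250 bases before the annotated start are shown for Six2, the factor with 0 counts in the most libraries, at 3, and for Osr1 and Wt1, which ran in nearly opposite order. Each is written 5′ to 3′ on the gene's own strand, with capitals on matches to the GC box letters GGGCGG, the CCAAT letters CCAAT, the TATA letters TATAAA and the EGR-type letters GCGGGGGCG, searched on both strands; the Osr1 and Wt1 windows had no match and so no capitals.
Six2, chr6:14727808-14728057, plus strand: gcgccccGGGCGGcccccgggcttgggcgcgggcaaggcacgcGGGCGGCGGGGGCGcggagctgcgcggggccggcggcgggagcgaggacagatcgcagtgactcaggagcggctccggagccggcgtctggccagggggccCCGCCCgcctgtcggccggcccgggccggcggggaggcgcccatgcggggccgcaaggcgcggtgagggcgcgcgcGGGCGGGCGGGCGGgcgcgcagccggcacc
Osr1, chr6:38097401-38097650, plus strand: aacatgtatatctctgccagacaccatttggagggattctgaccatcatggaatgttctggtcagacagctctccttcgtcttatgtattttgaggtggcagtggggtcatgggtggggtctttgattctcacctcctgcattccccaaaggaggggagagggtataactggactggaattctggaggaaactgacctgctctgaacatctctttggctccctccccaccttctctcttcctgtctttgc
Wt1, chr3:112021759-112022008, plus strand: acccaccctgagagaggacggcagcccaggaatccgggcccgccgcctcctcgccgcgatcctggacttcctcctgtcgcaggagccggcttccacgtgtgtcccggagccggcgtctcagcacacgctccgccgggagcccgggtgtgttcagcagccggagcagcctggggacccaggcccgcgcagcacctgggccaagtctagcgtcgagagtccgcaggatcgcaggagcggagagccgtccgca

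The Six2 window held 6 GC box matches, starting 243, 207, 106, 30, 26 and 22 bases before the start, each of the last 3 overlapping its neighbour. It also held 1 EGR-type match at 202 bases, which shares a base with the GC box at 207. Of 33469 rat promoter windows of this length, 30.5% held a GC box and 2.45% an EGR-type match, while 34.0% held CCAAT and 12.9% TATAAA. The Osr1 and Wt1 windows held none of the 4 sets of letters. They differed in CpG dinucleotides, with 1 in Osr1, 27 in Wt1 and 45 in Six2, against a median of 5 over all windows. These are descriptions of the letters at the annotated starts, and no data on binding or methylation were used.

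**Figure D1:**
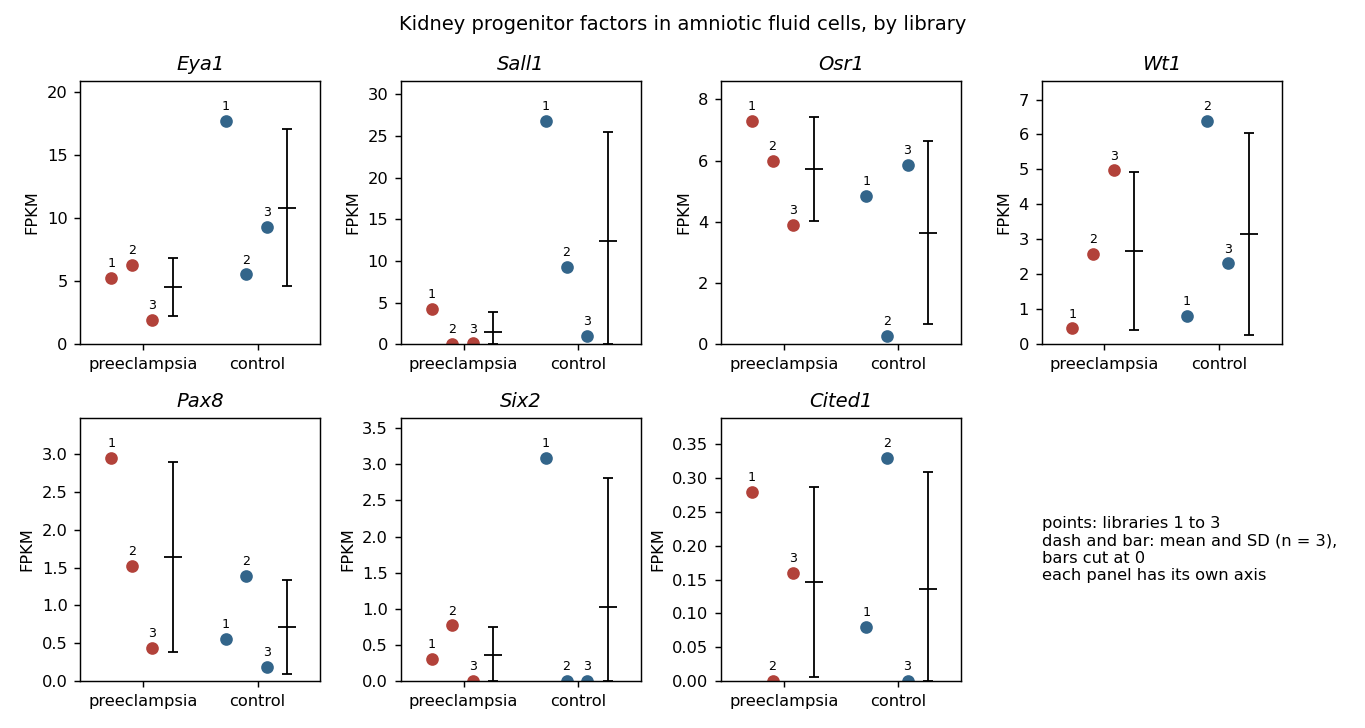
FPKM of each of the 7 factors (vertical axis, one scale per panel) in preeclampsia and control libraries 1 to 3 (numbered points), with the mean and SD of each group (n = 3). In every panel the points of the groups overlap; Sall1 and Six2 have their highest point in control library 1, at 26.76 and 3.09 FPKM.

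Among the factors of intermediate mesoderm, Osr1, a zinc finger repressor needed for the first kidney mesenchyme, was at 3.90 FPKM or more in each library but control library 2. Its level was 7.29, 5.98 and 3.90 FPKM in preeclampsia libraries 1 to 3 and 4.84, 0.26 and 5.85 FPKM in control libraries 1 to 3. The low value in control library 2 rested on 21 counts, and the other 5 libraries held from 294 to 589. The means were 5.72 ± 1.71 FPKM in the preeclampsia group and 3.65 ± 2.98 FPKM in the control group (SD, n = 3 each), and edgeR gave a log2 fold change of 0.66 (SE 0.93, adjusted p = 0.879). Without control library 2 the log2 fold change was 0.11, and without control library 3 it was 1.14. The gene lies on chromosome 6, from 32369561 to 32380822 on the plus strand, in the table's coordinates, whose sequence names are those of mRatBN7.2.

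Wt1, a zinc finger factor needed for the survival of kidney mesenchyme and later for podocytes, ran against Osr1. It stood at 0.45, 2.59 and 4.97 FPKM in preeclampsia libraries 1 to 3 and at 0.80, 6.38 and 2.31 FPKM in control libraries 1 to 3. Its highest library, control 2, was the lowest for Osr1, and its lowest, preeclampsia 1, was the highest for Osr1. The means were 2.67 ± 2.26 FPKM in the preeclampsia group and 3.16 ± 2.89 FPKM in the control group (SD, n = 3 each), with a log2 fold change of -0.19 (SE 0.98, adjusted p = 0.969 by edgeR). The 95% interval, from -2.57 to 2.18, leaves room for a change of more than 4 fold either way. Without control library 2 the log2 fold change was 0.81, and without preeclampsia library 1 it was 0.31. Wt1 lies on chromosome 3, from 91566540 to 91613653 on the plus strand.

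Wt1 is also a gene of mesothelium, the lining of the body cavities. The other mesothelial genes did not share 1 direction. Msln, the mesothelin gene, was at 17.02, 11.84 and 20.92 FPKM in preeclampsia libraries 1 to 3 and at 1.06, 2.03 and 1.76 FPKM in control libraries 1 to 3, without overlap (log2 fold change 3.38, SE 0.31, adjusted p = 0.228 by edgeR and 7.9e-22 by DESeq2). Pdpn, the podoplanin gene, was at 215.7, 275.96 and 339.25 FPKM in preeclampsia libraries and at 126.46, 159.21 and 136.1 FPKM in control libraries, also without overlap (log2 fold change 1.01, SE 0.2, adjusted p = 0.374 by edgeR and 0.00191 by DESeq2). In Wt1 the groups overlapped. Upk3b, a uroplakin gene, was at 0.39, 0.49 and 0.77 FPKM in preeclampsia libraries 1 to 3 and at 0.19, 3.31 and 0.77 FPKM in control libraries 1 to 3, highest in the library where Wt1 was highest. The mesothelial transcription factor gene Bnc1 was at 0.05, 0.03 and 0.08 FPKM in preeclampsia libraries and at 0.04, 1.41 and 0.67 FPKM in control libraries, and DESeq2 called it lower (adjusted p = 0.0357; 0.473 by edgeR). The keratin genes Krt8 and Krt18 also peaked in control library 2, at 37.40 and 17.15 FPKM, and DESeq2 called both lower in the preeclampsia group, while the defining epithelial genes Cdh1 and Epcam did not exceed 0.10 FPKM in any library. Krt19, on both lists, peaked instead in control library 1, at 2.23 FPKM, with 0.41 FPKM in control library 2 and 0 elsewhere. The mesothelial gene Lrrn4 was highest in control library 3, at 3.25 FPKM, and next in preeclampsia library 3, at 2.82 FPKM. The 9 mesothelial genes summed to between 234 and 365 FPKM in the preeclampsia group and between 131 and 169 FPKM in the control group, most of it Pdpn, and the 7 epithelial genes analysed summed to between 0.5 and 1.58 FPKM and between 3.94 and 55.0 FPKM in the same groups. In Muc16, a mesothelial mucin gene, only control library 1 was above 0, at 0.01 FPKM. The part of these cells in the Wt1 level was not tested.

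Pax8, a paired-box factor that works with Pax2 in the early kidney and is also a thyroid gene, was low in all libraries. It was at 2.95, 1.52 and 0.44 FPKM in preeclampsia libraries 1 to 3 and at 0.56, 1.39 and 0.18 FPKM in control libraries 1 to 3. The groups interleaved, with preeclampsia library 3 below control libraries 1 and 2. Means were 1.64 ± 1.26 FPKM in the preeclampsia group and 0.71 ± 0.619 FPKM in the control group (SD, n = 3 each), a log2 fold change of 1.20 (SE 0.89, adjusted p = 0.762 by edgeR). It was 0.52 without preeclampsia library 1, 2.12 without control library 2 and 0.75 without control library 3. Preeclampsia library 1 also had the most RNA of G2 and M phase genes, whose 12 members summed to 450 FPKM there, between 91.4 and 95.2 FPKM in the other preeclampsia libraries and between 93.6 and 229 FPKM in the control libraries, and the part of this in the Pax8 level was not tested. Pax8 lies on chromosome 3, from 7185721 to 7242363 on the minus strand.

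The factors that define the nephron progenitor itself, Six2 and Cited1, had the lowest means, though in control library 1 Six2 stood above Wt1 and Pax8. Six2, a homeobox factor that holds nephron progenitors back from differentiation, had 24, 64 and 0 counts in preeclampsia libraries 1 to 3 and 216, 0 and 0 counts in control libraries 1 to 3. That corresponds to 0.31, 0.77 and 0 FPKM in the preeclampsia libraries and 3.09, 0 and 0 FPKM in the control libraries. A count of 0 allows up to 3 counts, or between 0.0359 and 0.044 FPKM at these depths, as counting error alone. Most of the Six2 RNA in the series was thus in control library 1. The log2 fold change of -1.51 (SE 2.30, adjusted p = 0.89 by edgeR) has a 95% interval from -7.06 to 4.04, and without control library 1 the direction turned, since the other control libraries are at 0. Six2 lies on chromosome 6, from 8974859 to 8981345 on the plus strand.

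Cited1, a transcriptional coactivator that marks the youngest nephron progenitors, stayed under 0.4 FPKM throughout. It had 44, 0 and 23 counts in preeclampsia libraries 1 to 3 and 12, 51 and 0 counts in control libraries 1 to 3. The library with the most Six2, control 1, had 0.08 FPKM of Cited1, and the library with the most Cited1, control 2, had no Six2 count. The group means were 0.147 ± 0.14 FPKM for preeclampsia and 0.137 ± 0.172 FPKM for control (SD, n = 3 each), a log2 fold change of 0.09 (SE 1.72, adjusted p = 0.991 by edgeR). Its direction turned when control library 1, control library 3 or preeclampsia library 1 was left out (-0.15, -0.48 and -0.76). Cited1 lies on chromosome X, from 67350376 to 67355072 on the minus strand.

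Eya1 and Sall1, partners of Six2 in kidney mesenchyme, had the highest means and were lower in the preeclampsia group without passing the test. Eya1, a coactivator and phosphatase that binds the Six2 protein, was at 5.28, 6.30 and 1.94 FPKM in preeclampsia libraries 1 to 3 and at 17.66, 5.52 and 9.28 FPKM in control libraries 1 to 3. Preeclampsia library 2 lay above control library 2, which is the only overlap between the groups. The means were 4.51 ± 2.28 FPKM in the preeclampsia group and 10.8 ± 6.21 FPKM in the control group (SD, n = 3 each). The log2 fold change was -1.26 (SE 0.58, 95% interval from -2.66 to 0.14), with an adjusted p of 0.591 by edgeR and 0.294 by DESeq2. Without control library 1 it was -0.66. Eya1 spans 238 kb of chromosome 5, from 4863501 to 5101483 on the plus strand, and a noncoding gene on the other strand that overlaps it had at most 23 counts in a library, against 433 or more for Eya1.

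Sall1, a zinc finger factor that recruits a repressor complex in nephron progenitors and is also a limb gene, had the widest range of the 7 in FPKM, a scale that rests on its assumed length. Eya1 spanned more counts, from 433 to 4012, though its highest and lowest libraries differed by a smaller ratio. Sall1 was at 4.23, 0.08 and 0.09 FPKM in preeclampsia libraries 1 to 3 and at 26.76, 9.23 and 1.03 FPKM in control libraries 1 to 3. In counts these were 184, 4 and 4 in the preeclampsia libraries and 1107, 399 and 45 in the control libraries. The highest and lowest libraries differed 334 fold in FPKM, a ratio whose lower end rests on 4 counts. It is thus near the level of 3 counts, between 0.0606 and 0.0741 FPKM for Sall1. Preeclampsia library 1 lay above control library 3. The means were 1.47 ± 2.39 FPKM in the preeclampsia group and 12.3 ± 13.1 FPKM in the control group (SD, n = 3 each), with a log2 fold change of -3.13 (SE 1.75, 95% interval from -7.35 to 1.09, adjusted p = 0.667 by edgeR and 0.298 by DESeq2). It was -7.06 without preeclampsia library 1 and -1.81 without control library 1. Sall1 lies on chromosome 19, from 18005782 to 18022705 on the plus strand, and a noncoding gene on the other strand that overlaps its start had at most 42 counts.

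The low Sall1 libraries of the preeclampsia group were those with the most macrophage RNA. The 12 macrophage and blood genes, all listed above 0 in at least 1 library, summed to 26.7, 374 and 182 FPKM in preeclampsia libraries 1 to 3 and to 134, 110 and 23.5 FPKM in control libraries 1 to 3. In the control group, library 3 had the least of both. The mesenchymal genes, such as Col1a1 and Vim, summed to between 6050 and 8210 FPKM in the preeclampsia group and between 4270 and 5870 FPKM in the control group, with all 11 at 1 FPKM or more in every library. Of these 11, edgeR called 0 and DESeq2 called Dcn, Lum and Pdgfra, each higher in the preeclampsia group. The part of the cell mixture in the Sall1 level was not tested.

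**Figure D2:**
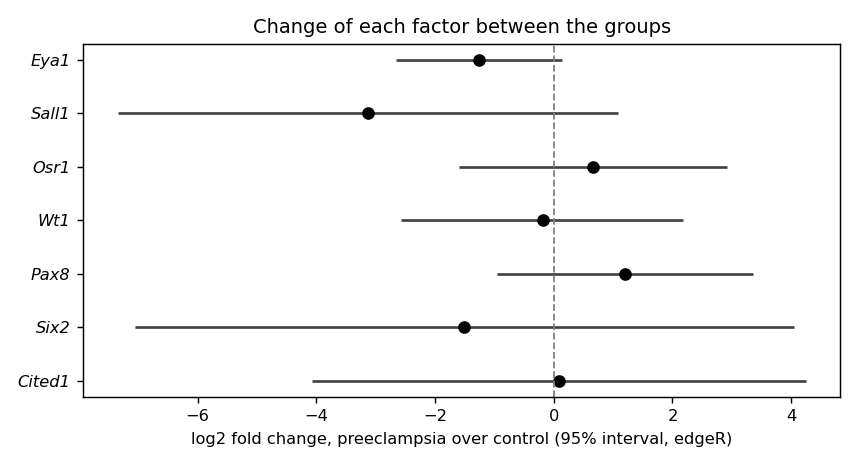
Log2 fold change of preeclampsia over control for each factor (points) with its 95% interval (lines), from edgeR's fit across 15776 genes; the dashed line marks no change. All 7 intervals include 0, and those of Sall1, Six2 and Cited1 are the widest.

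Taken as a list, 3 of the 7 factors had a log2 fold change above 0 and 4 below, where 48.3% of all tested genes were below, with a median log2 fold change of -0.19, against 0.01 over all tested genes. In none of the 7 did the groups separate without overlap, which 15.6% of all tested genes did. The ranges of the 7 factors over the 6 libraries also overlapped one another in FPKM, apart from 2 of the 21 pairs, Cited1 below Eya1 and Cited1 below Wt1. The order of the means, with Eya1 at 7.66 FPKM, Sall1 at 6.9, Osr1 at 4.69, Wt1 at 2.92, Pax8 at 1.17, Six2 at 0.695 and Cited1 at 0.142, is therefore not resolved between neighbours. The place of Sall1 in that order also depends on its length: count and FPKM together imply a length of 0.836 kb for Sall1, short for a gene with a long zinc finger reading frame, against 4.59 kb for Eya1 and a median of 2.74 kb over genes with a mean of at least 1 FPKM. Seen against all tested genes, whose median was 5.04 FPKM, the factors ranged from the 58.4th percentile of mean level for Eya1 to the 7.76th for Cited1.

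The factors each had a wide spread between libraries of one group, which was not particular to them. The SD of log2 CPM (counts scaled to library size) within groups was 0.90 for Eya1, 1.39 for Pax8, 1.61 for Wt1, 1.77 for Osr1, 2.39 for Cited1, 2.63 for Sall1 and 3.34 for Six2, against a median of 0.31 over all tested genes. These lie at the 83.1st percentile of tested genes for Eya1 and between the 92.4th and 99.9th for the other 6. Low counts widen this SD. For the 5 factors with a mean between 1 and 10 FPKM, the percentile among the 6104 tested genes of that level was between 86.4 for Eya1 and 99.4 for Sall1. Those genes were matched on FPKM and not on counts, so the part of low counts in the spread was not tested. Among relatives of the factors, picked after their values were seen, the within-group SD was 0.06 for Eya3, 0.16 for Cited2, 0.24 for Sall2 and 0.27 for Six5, but 2.66 for Six3 and 3.74 for Lhx8, so families held both kinds. Factors of other organ primordia, picked in the same way, did too. Their SD was 3.94 for Tbx4, 3.13 for Tbx5 and 2.91 for Pitx1, but 0.3 for Prrx1 and 0.26 for Prrx2.

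**Figure D3:**
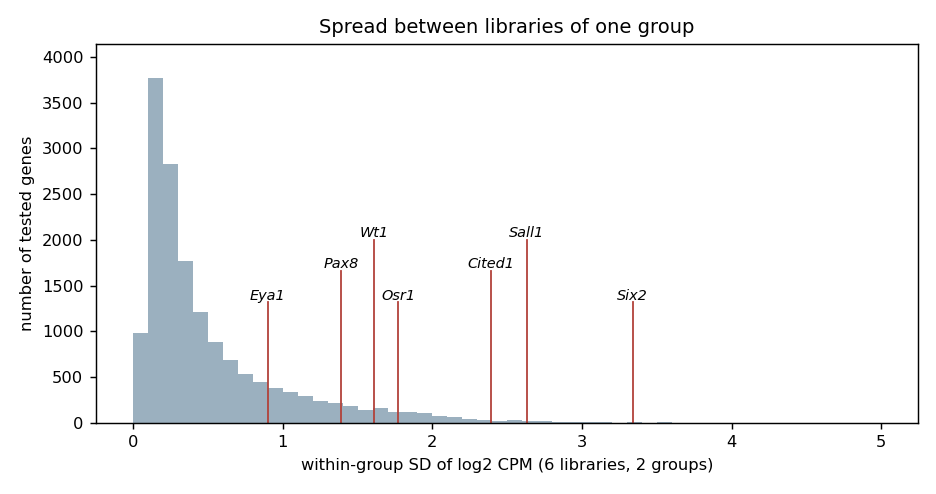
Distribution over all 15776 tested genes of the within-group SD of log2 CPM (horizontal axis; bars count genes in steps of 0.1), with the 7 factors marked by red lines. All 7 lie right of the median of 0.31, from Eya1 at 0.90 to Six2 at 3.34.

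The factors did not share one order of libraries. Across the 6 libraries Osr1 and Wt1 ran in opposite directions (Pearson r = -0.62, Spearman rho = -0.77 on log2 CPM, as a description of 6 libraries that share the group split), and Sall1 and Eya1 shared their peak in control library 1. By Pearson r on log2 CPM, the best-correlated expressed gene, of 10678 with a symbol and a mean of at least 1 FPKM, was Nab1 for Sall1 (r = 0.992), Rora for Wt1 (r = 0.996), Tnpo2 for Osr1 (r = 0.996), Vof16 for Pax8 (r = 0.982) and Lpin3 for Eya1 (r = 0.982). The next were Cadm4 and Ccdc6 for Sall1, Chmp1b and Fam210b for Wt1, Zfp141 and Nsg1 for Osr1, Ints5 and Srrt for Pax8, and Atp6v0e2 and Rab4a for Eya1. Between 33 genes for Wt1 and 223 for Sall1 had an r above 0.9, so 6 libraries single out no one of them. Pearson r leaves out the size of the differences. Nab1 ran only from 28.41 to 37.81 FPKM where Sall1 ran from 0.08 to 26.76 FPKM. Tnpo2 ran from 12.09 to 15.2 FPKM where Osr1 ran from 0.26 to 7.29 FPKM, and Rora from 54.82 to 78.81 FPKM where Wt1 ran from 0.45 to 6.38 FPKM. Wider ranges were seen in Cadm4, from 1.6 to 15.87 FPKM, and Nsg1, from 0.38 to 26.56 FPKM. Without the 2 libraries farthest from the factor's median, r was 0.75 for Osr1 and Tnpo2 and 0.85 for Eya1 and Lpin3, and 0.98 or above for the first match of the other 3.

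Of the other genes of nephron progenitors, 15 of the 18 listed were analysed and 12 tested. Of these, edgeR and DESeq2 each called 0, and 1 had an unadjusted edgeR p under 0.05. For this and the lists that follow, the shares over all genes were 2.65% called by DESeq2 and 9.19% at that unadjusted p. Cdh11, Itga8 and Ncam1, adhesion genes that other mesenchyme also expresses, had the highest means. Itga8, the integrin subunit that responds to the ureteric bud, was at 22.40, 24.82 and 50.54 FPKM in preeclampsia libraries and at 29.80, 15.19 and 24.40 FPKM in control libraries. Gdnf, the growth factor by which kidney mesenchyme attracts the bud, was at 3.22, 2.99 and 3.30 FPKM in preeclampsia libraries and at 2.08, 4.61 and 1.55 FPKM in control libraries. Meox1, which in the kidney is a cap mesenchyme gene, did not exceed 0.03 FPKM in any library.

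The posterior Hox genes that pattern kidney mesenchyme and limb had their highs in nearly the same libraries as Sall1. Hoxa11 was at 16.04, 0.10 and 0.21 FPKM in preeclampsia libraries 1 to 3 and at 40.73, 14.50 and 1.13 FPKM in control libraries 1 to 3. Hoxd11 was at 1.9, 0 and 0.14 FPKM in preeclampsia libraries and at 3.20, 0.33 and 0.20 FPKM in control libraries. In Hoxa11, Hoxd11 and Sall1 alike, control library 1 was highest and preeclampsia libraries 2 and 3 were the lowest, Sall1 having 4 counts in each of these. Neither Hox gene was called (log2 fold change -1.86, SE 1.91, adjusted p = 0.836 for Hoxa11 and -0.94, SE 1.75, adjusted p = 0.912 for Hoxd11, by edgeR).

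Genes of the early nephron and the ureteric bud were mixed in level: 7 of 11 and 6 of 14 analysed had a mean of at least 1 FPKM. In the early nephron list 11 of 15 were analysed and 9 tested, with 0 called by edgeR, 2 at an unadjusted p under 0.05, and Jag1 called by DESeq2. Jag1, a Notch ligand, was at 1.17, 0.92 and 1.56 FPKM in preeclampsia libraries and at 18.13, 2.68 and 7.30 FPKM in control libraries, a log2 fold change of -2.95 (SE 0.71, adjusted p = 0.431 by edgeR and 0.000765 by DESeq2), and it is named here because DESeq2 called it. Dll1, another Notch ligand and the other gene at that unadjusted p, went the opposite way. It was at 0.18, 1.61 and 1.43 FPKM in preeclampsia libraries and at 0, 0.05 and 0.15 FPKM in control libraries. The log2 fold change of Dll1 was 3.98 (SE 1.36, adjusted p = 0.473 by edgeR and 0.0546 by DESeq2). Wnt4, the signal that starts the turn to epithelium, was at 1.38, 4.84 and 2.12 FPKM in preeclampsia libraries and at 3.04, 8.60 and 1.08 FPKM in control libraries, with a log2 fold change of -0.57 (SE 0.80, adjusted p = 0.88). Notch2, Ccnd1 and Jag1 had the highest means of that list. In the ureteric bud list 14 of 16 were analysed and 10 tested, with 0 called by edgeR or DESeq2 and 0 at an unadjusted p under 0.05. Its highest were Etv4, Etv5 and Spry1, targets of growth factor signalling in many tissues, while Ret, the Gdnf receptor of the bud, did not exceed 0.02 FPKM.

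Podocyte and tubule genes also ranged from high to near 0. Of 14 podocyte genes 11 were analysed and 10 tested, with 0 called by edgeR and Clic5 called higher by DESeq2. At an unadjusted edgeR p under 0.05 there were 3, against 9.19% of all tested genes. Synpo, an actin-associated gene, and Kirrel1 and Cd2ap, whose products belong to the podocyte slit diaphragm, had the highest means, from 31.8 FPKM for Cd2ap to 155 FPKM for Synpo, while Podxl, the podocalyxin gene of the podocyte surface, stayed at 0.16 FPKM or less. Of 13 tubule genes 8 were analysed and 5 tested, with 0 called by either tool and 1 at an unadjusted p under 0.05. Aqp1, a water channel that many mesenchymal and endothelial cells also carry, was the only one at 1 FPKM or more in every library. Lrp2, the megalin gene of the proximal tubule, was the tubule gene at that unadjusted p. It was low, at 0.07, 0.07 and 0.57 FPKM in preeclampsia libraries 1 to 3 and at 0.05, 0.02 and 0.03 FPKM in control libraries 1 to 3. The groups did not overlap, as in 15.6% of all tested genes. The log2 fold change of Lrp2 was 2.76 (SE 0.99, adjusted p = 0.481 by edgeR and 0.0901 by DESeq2). Cubn and Slc5a2 followed Aqp1 in mean level, with no value above 1.39 FPKM.

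In the kidney stroma list, Foxd1, the factor that defines stromal progenitors, had no count in any of the 6 libraries, which allows up to 3 counts in each. Of the 16 listed, 15 were analysed and 14 tested, with 0 called by edgeR. At an unadjusted edgeR p under 0.05 there were 3, against 9.19% of all tested genes. DESeq2 called Pdgfra and Dchs1, both higher in the preeclampsia group. The other gene at that unadjusted p, Meis1, was lower. It was at 28.87, 23.80 and 31.93 FPKM in preeclampsia libraries and at 34.49, 36.39 and 40.24 FPKM in control libraries (log2 fold change -0.37, SE 0.13, adjusted p = 0.478 by edgeR). Of the 14 tested, 9 had a log2 fold change below 0 and 5 above, where 48.3% of all tested genes were below. Pdgfra, a growth factor receptor of mesenchyme in many organs, was at 225.46, 235.97 and 410.59 FPKM in preeclampsia libraries and at 99.76, 97.70 and 116.11 FPKM in control libraries, without overlap (log2 fold change 1.5, SE 0.27, adjusted p = 0.373 by edgeR and 5.8e-05 by DESeq2). Pdgfrb and Ntn1 were the other genes of that list with the highest means.

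**Figure D4:**
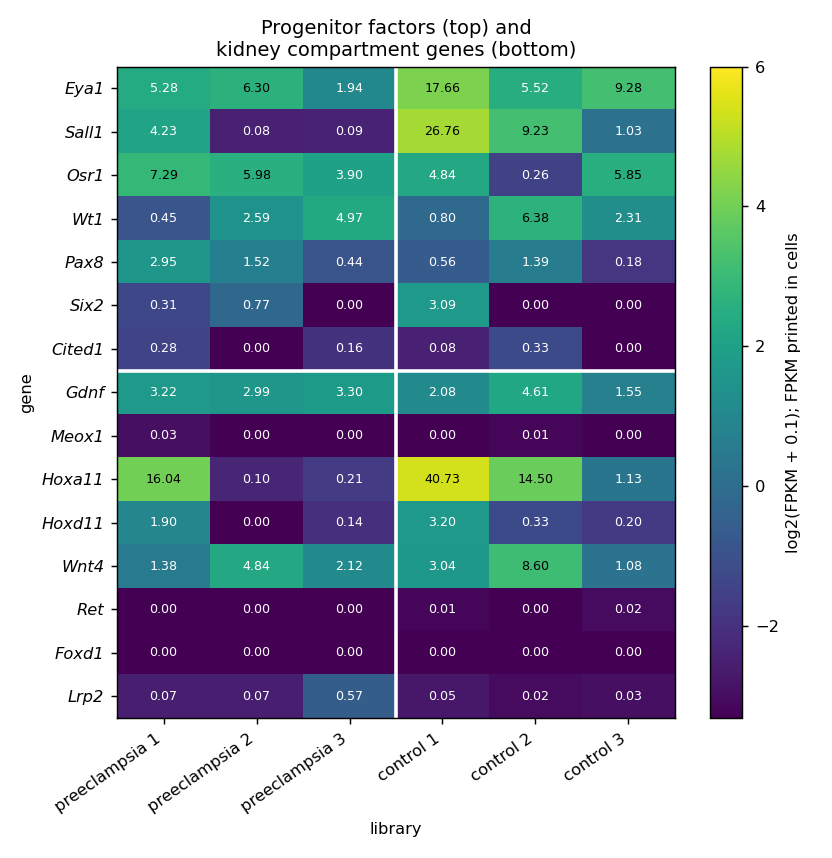
FPKM printed in each cell, coloured by log2(FPKM + 0.1), for the 7 progenitor factors (above the horizontal white line) and 8 genes of kidney compartments (below it) in preeclampsia libraries 1 to 3 and control libraries 1 to 3. Foxd1, Ret and Meox1 stay at or near 0 in all 6 libraries, and Sall1 and Hoxa11 share their high and low libraries.

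The relatives of the factors were measured as a comparison. Of 36 family members 34 were analysed and 22 tested, with 0 called by edgeR and Osr2 called by DESeq2. At an unadjusted edgeR p under 0.05 there were 4, against 9.19% of all tested genes. Osr2, the close relative of Osr1, was at 1.34, 0.89 and 0.57 FPKM in preeclampsia libraries and at 0.19, 0.06 and 0.15 FPKM in control libraries, without overlap (log2 fold change 2.79, SE 0.56, adjusted p = 0.374 by edgeR and 0.000391 by DESeq2). It stayed under Osr1 in every library. Cited2, at 261 ± 13.1 FPKM in the preeclampsia group and 295 ± 34.4 FPKM in the control group (SD, n = 3 each), stood far above Cited1, and Egr1 and Eya3 were the next highest of the family list.

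Factors of other organ primordia were set beside the kidney ones. Of 25 listed, 22 were analysed and 18 tested, with 0 called by edgeR. At an unadjusted edgeR p under 0.05 there were 3, against 9.19% of all tested genes. DESeq2 called Hand2 lower and Nr2f1 higher in the preeclampsia group. Prrx1, a homeobox factor of limb and head mesenchyme, was at 715.88, 481.63 and 474.59 FPKM in preeclampsia libraries and at 542.37, 428.62 and 386.16 FPKM in control libraries. Prrx2 and Twist1 were the next highest. Each Prrx1 value stood above the highest value of any of the 7 kidney factors, 26.76 FPKM. Hand2, a factor of heart and limb mesenchyme, was at 15.32, 4.14 and 2.56 FPKM in preeclampsia libraries and at 50.29, 48.51 and 15.32 FPKM in control libraries (log2 fold change -2.39, SE 0.78, adjusted p = 0.473 by edgeR and 0.0418 by DESeq2). Like Sall1, it was lowest in preeclampsia libraries 2 and 3.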

How the data were processed

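Per the labels' protocols, mRNA from 6 cultures was captured on oligo(dT), fragmented, copied from random primers and given adapters with molecular identifiers. Collapse by identifier is not stated. Tools listed in the submitters' processing notes are cutadapt 1.9, FastQC, HISAT2 2.2.1 and StringTie 2.1.6; a genome build was not given in the sources used here. Per the file headers, the authors deposited a count and an FPKM for each gene in each library. Between 35.1% and 38.0% of counts from 1 to 15 were multiples of 4, where an even spread gives 20%, so small counts carry extra uncertainty. Totals were 48402185 to 59193961 counts. No library repeated another: chi-square per degree of freedom was 114 or more for each pair.

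Deposited counts passed filterByExpr and TMM scaling before the quasi-likelihood test of edgeR 4.0.16 (R 4.3.3), fitted on group alone, with Benjamini-Hochberg adjustment over 15776 genes. Standard errors came from the F statistic. The scripts were tested on simulated data. The members and lists were chosen with earlier results of these data known. The rule for names took every member, the genes edgeR called or otherwise the 3 with the highest mean FPKM of each list, and genes that define kidney compartments, of which some are not reported here. Marker genes, genes called by DESeq2, Dll1, Meis1 and further relatives were picked with their values in view. DESeq2 1.42.0, RLE size factors, an unfiltered fit, a fit blocked on replicate number, limma 3.58.1 on log2(FPKM + pseudocount) and leaving out each library served as alternatives.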

Additional observations from a re-analysis of the deposited data

How the results depend on the processing

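Alternatives gave 87 fold changes, 13 for each of 5 factors and 11 for Six2 and Cited1, which the limma fits with a filter on FPKM left out. None with an adjusted p was called, the lowest being 0.278 (DESeq2 gave none for Cited1), and 80 of 87 kept their direction. An unadjusted p under 0.05 was reached in 3 alternatives for Sall1 and 2 for Eya1, and in 0 for each other factor. The lowest was 0.00767 for Sall1, by edgeR without preeclampsia library 1, and 0.028 for Eya1, by DESeq2. Over all genes, edgeR called 0, DESeq2 368 and limma on log2(FPKM + 1) without a filter 1, and edgeR between 0 and 2 with a library left out. DESeq2 called 1 of 9 tested genes of early nephron, 2 of 14 of kidney stroma and 1 of 10 of podocyte. It called 1 of 22 family members and 2 of 18 of other organ primordia. In marker lists it called 3 of 6 tested genes of mesothelium, 3 of 11 of mesenchyme and 2 of 2 of epithelium. By edgeR it was 0 in each list, and over all genes with an adjusted p DESeq2 called 2.65%. With a library left out, log2 fold changes ran from -1.62 to -0.66 for Eya1, -7.06 to -1.81 for Sall1, 0.11 to 1.14 for Osr1, 0.52 to 2.12 for Pax8, -0.99 to 0.81 for Wt1, -0.76 to 1.80 for Cited1 and -2.72 to 7.80 for Six2, where the last value is fitted against 2 control libraries at 0 and is no bound. With the replicate number as a block, Six2 was at 0.68, its direction reversed, and edgeR again called 0 genes. The block lowered the SE of Sall1 from 1.75 to 0.93 (log2 fold change -4.06), of Pax8 from 0.89 to 0.51 and of Wt1 from 0.98 to 0.59. It left Eya1 nearly the same and raised the SE of Six2, Osr1 and Cited1. Deviations of same-numbered libraries from the group means correlated at 0.048, 0.041 and 0.010, against -0.08 to 0.035 for libraries of different number. Control library 3 correlated best with preeclampsia library 2. All these values are near 0, and they do not settle whether same-numbered libraries are paired. The cause of these shifts was not tested. Counts were as low as 0 for Six2 and Cited1 and 4 for Sall1, and how far depth limits these factors was not tested.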

Other observations

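Six2 and Six3, an eye and forebrain factor, lie 58.8 kb apart on chromosome 6, and their highest levels were in different libraries. Six3 was at 0.02, 0.38 and 0.15 FPKM in preeclampsia libraries 1 to 3 and at 0, 1.04 and 0.35 FPKM in control libraries 1 to 3. Control library 1, with the most Six2, was the one with no Six3 count, and control library 2, with the most Six3, had no Six2 count, while preeclampsia libraries 1 and 2 held both. The hindlimb factor Tbx4, chosen after its values were seen, was at 3.00, 0 and 0.12 FPKM in preeclampsia libraries 1 to 3 and at 9.41, 1.14 and 0.05 FPKM in control libraries 1 to 3, highest in control library 1 like Sall1, Six2, Eya1 and Hoxa11. Another hindlimb factor, Pitx1, was at 4.80, 0.03 and 0.02 FPKM in preeclampsia libraries and at 4.50, 2.83 and 4.78 FPKM in control libraries, so preeclampsia libraries 2 and 3 were the lowest for it and for Sall1. Lhx8, a relative of Lhx1, reached 24.45 FPKM in preeclampsia library 2 and 6.07 FPKM in control library 3, with 0.47 FPKM or less in the other 4.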
